A study of Arabidopsis thaliana with 4 samples.

Results

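Histones are the proteins that wrap DNA into nucleosomes, and their genes were followed here in developing Arabidopsis thaliana seeds. The genes were chosen by locus identifier and comprise 13 H2A, 11 H2B, 14 H3, 8 H4 and 3 linker H1 genes, 49 in all among the 33187 identifiers of the expression table. RNA came from whole seeds at 7 days post anthesis, with embryos at torpedo/linear stage. There were 2 libraries of the erf4 T-DNA insertion line SALK_073394, called erf4_2 in the sample titles, and 2 libraries of the wild type. The labels name no other allele, transgene or treatment, give no accession background, and do not say which plants gave each library. The p-values below thus measure the spread between these libraries only, and that spread may be technical.

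An octamer of core histones holds a pair each of H2A, H2B, H3 and H4, and linker H1 binds where DNA enters and leaves it. Replication-coupled histones (canonical H2A, H2B, H3.1 and H4) are made in S phase for new DNA, where the chaperone CAF-1 places H3.1 with H4 and other chaperones carry H2A with H2B. Variants are deposited outside replication as well: H3.3 at transcribed genes by HIRA, H2A.Z near gene starts by the SWR1 complex, H2A.W over heterochromatin, H2A.X as the form phosphorylated at DNA breaks, and CENH3 at centromeres. In a seed, embryo and endosperm nuclei divide early, and division slows as the embryo fills with reserves. Here 27 genes were counted as replication-coupled, 19 as variants and 3 as linker histones. The divergent H2B gene AT1G08170, whose protein of 243 residues is 28.4% to 31.7% identical to the other H2B proteins, was counted with the variants. It was listed at 0 in every library and adds nothing to any sum.

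Expression was deposited as TPM, a unit that corrects a gene's reads for its length and brings every library to the same total, so that levels of different genes can be compared and added. The depth of the libraries is unknown, and each had between 20295 and 20630 identifiers at 1 TPM or more. ERF4 itself (AT3G15210), an ethylene response factor that represses transcription, had 34.6 and 41.3 TPM in the libraries labelled erf4, against 38 and 33 TPM in the wild type, so its transcript level does not check the genotype labels. One library stood apart: 2S albumin and 12S globulin transcripts took 0.0855% of all TPM in erf4 replicate 2 and 3.36% in erf4 replicate 1, against 2.97% and 1.55% in the wild type. Across the 20804 genes with at least 1 TPM in at least 2 libraries, limma with Benjamini-Hochberg adjustment called no gene at an adjusted p under 0.05 (0% called), and 1452 genes (6.98%) had an unadjusted p under 0.05. No histone gene was called in this fit, which has genotype as its only term and gives the fold changes and p-values below unless another setting is named.

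Histone genes carry short sequences in their promoters that are known from plant histone genes as the octamer CGCGGATC and the hexamer ACGTCA. Both were searched on either strand in the 300 bases before each annotated gene start, in the RefSeq annotation of TAIR10.1. All 32548 nuclear locus identifiers of the expression table are locus tags of that annotation, and all 49 histone genes matched, although the sources used here name no build for the table. The octamer lay before 10 of the 49 histone genes (20.4%) and before 41 of all 27443 protein-coding genes (0.149%). It lay before 3 of 5 H3.1, 2 of 4 canonical H2A and 2 of 8 H4 genes, and before 1 gene each of H2A.W, H3.3 and linker H1. The 12 matches are shown because this sequence was rare before other genes. Each is written 5′ to 3′ on the strand where the octamer reads as above, with up to 16 bases on either side inside the window and the octamer in capitals.
AT1G51060 (HTA10), chr1:18926721-18926760, plus strand: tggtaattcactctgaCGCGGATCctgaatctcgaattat
AT1G51060 (HTA10), chr1:18926785-18926810, minus strand: taCGCGGATCgctgtttatcaccgtt
AT3G20670 (HTA13), chr3:7229306-7229345, minus strand: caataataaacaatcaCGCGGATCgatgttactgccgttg
AT5G59870 (HTA6), chr5:24116313-24116352, minus strand: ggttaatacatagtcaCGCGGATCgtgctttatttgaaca
AT5G65360 (H3.1), chr5:26120684-26120723, minus strand: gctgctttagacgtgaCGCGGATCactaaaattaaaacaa
AT1G09200 (H3.1), chr1:2972401-2972440, minus strand: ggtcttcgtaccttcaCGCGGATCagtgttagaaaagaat
AT1G09200 (H3.1), chr1:2972335-2972369, minus strand: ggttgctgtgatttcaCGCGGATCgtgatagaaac
AT5G10400 (H3.1), chr5:3271054-3271093, minus strand: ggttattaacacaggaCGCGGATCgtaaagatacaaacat
AT4G40040 (H3.3), chr4:18558946-18558978, plus strand: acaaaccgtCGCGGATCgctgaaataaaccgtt
AT1G07660 (H4), chr1:2368691-2368730, plus strand: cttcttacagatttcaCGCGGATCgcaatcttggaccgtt
AT5G59690 (H4), chr5:24051387-24051426, plus strand: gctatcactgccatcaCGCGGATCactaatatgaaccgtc
AT1G06760 (linker H1), chr1:2077772-2077811, plus strand: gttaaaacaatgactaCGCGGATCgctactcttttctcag
The letter before the octamer was A in 11 of the 12 matches and the pair before it CA in 6. The gene strand carried it in 8 cases.

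The hexamer was most frequent before H2B genes. It lay before 8 of 10 H2B genes, 2 of 5 H3.1 genes, 3 of 19 variant genes and none of the H4 or canonical H2A genes, against 2394 of all 27443 genes (8.72%). In 5 histone promoters, 4 of them H2B and 1 H3.3, it was followed directly by TCGATC. Only 8 of all 27443 promoters (0.0292%) hold that longer form, which was looked for after the windows had been read. Shown are the 8 H2B matches and the H3.3 match with the longer form, with the hexamer in capitals.
AT1G07790 (H2B), chr1:2412891-2412928, plus strand: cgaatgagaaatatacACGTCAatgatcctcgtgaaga
AT5G22880 (H2B), chr5:7652888-7652925, minus strand: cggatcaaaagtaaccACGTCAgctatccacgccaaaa
AT2G28720 (H2B), chr2:12326742-12326779, plus strand: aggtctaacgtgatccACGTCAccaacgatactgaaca
AT2G37470 (H2B), chr2:15736663-15736700, plus strand: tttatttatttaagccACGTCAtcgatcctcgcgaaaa
AT3G53650 (H2B), chr3:19889185-19889222, plus strand: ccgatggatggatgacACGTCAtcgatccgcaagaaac
AT3G45980 (H2B), chr3:16898148-16898185, minus strand: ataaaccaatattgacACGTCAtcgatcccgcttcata
AT5G02570 (H2B), chr5:577255-577292, minus strand: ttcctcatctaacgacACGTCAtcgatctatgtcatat
AT3G46030 (H2B), chr3:16914198-16914235, minus strand: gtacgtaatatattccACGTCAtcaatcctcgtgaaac
AT5G10980 (H3.3), chr5:3473610-3473647, minus strand: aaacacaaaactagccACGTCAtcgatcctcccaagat
No match of one motif overlapped another. AT5G10400, an H3.1 gene, was the one histone promoter with both octamer and hexamer, and 4 of all 27443 promoters had both. Letters bound by the S phase factor E2F (TTTCCCGC, TTTCGCGC, TTTGCCGC or TTTGGCGC), added after the other motifs, lay before 4 of 27 replication-coupled genes, 0 of 19 variant genes and 432 of all 27443 genes (1.57%). Of the 4, the H4 genes AT3G45930 and AT3G46320 have nearly identical windows, with the match 229 bases before the start in both. These matches are therefore not separate cases. A match describes letters and is not evidence of binding.

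**Figure D1:**
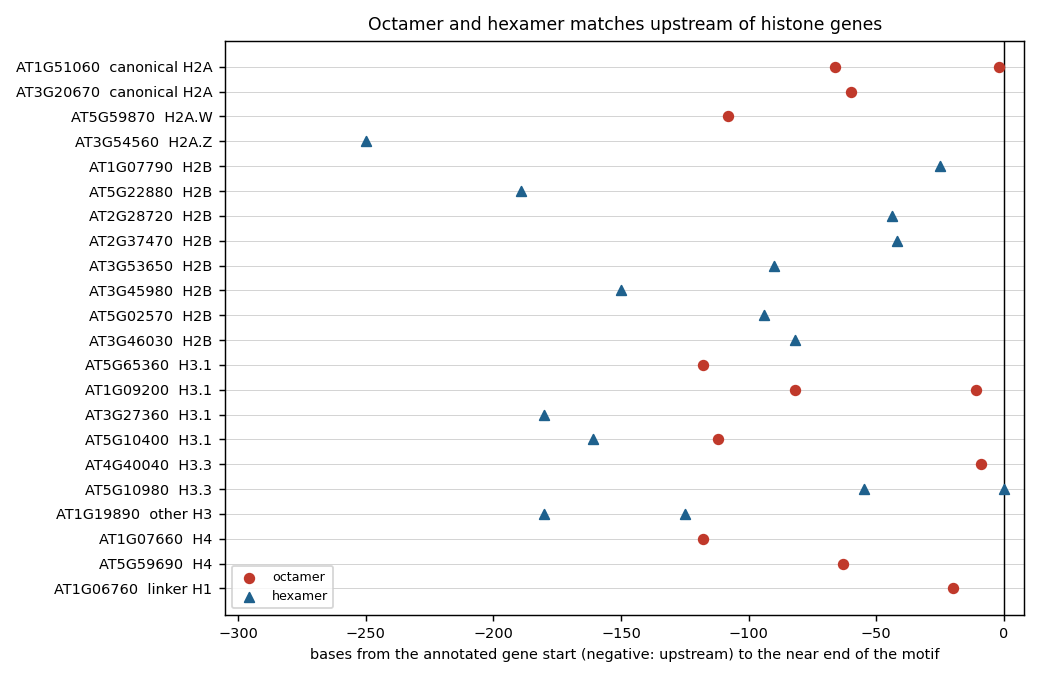
Position of each octamer (circles) and hexamer (triangles) match upstream of the 22 histone genes that have one, in bases from the annotated gene start. Octamers lie between 2 and 118 bases before the start and hexamers between 0 and 250.

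Gene structure differed between the pools taken whole, but hardly within H2A. Canonical H2A and H2A.X genes have 2 coding exons, and H2A.W and H2A.Z genes 2 to 3. Of the 27 replication-coupled genes, 23 have a single coding exon, the exceptions being the 4 canonical H2A genes with 2, while 16 of the 19 variant genes have several, up to 9 in CENH3. All 8 H4 genes encode 1 identical protein of 103 residues, and all 5 H3.1 genes 1 identical protein of 136. H3.3, as annotated for AT4G40040 and AT5G10980, differs from H3.1 by 4 substituted residues, and 3 of the 4 annotated transcripts of AT4G40030 encode the same protein. Among the H4 genes 3 pairs have coding sequences 97.1% to 98.1% identical, and the H3 genes AT1G75600 and AT1G13370 are 93.4% identical. Reads of such copies may be divided between them by the counting, so single values of these genes are uncertain, whereas a sum over the class is less exposed.

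H3 was the most abundant class, and H3.3 held most of it. The H3.3 gene AT4G40040 had the highest mean level of all histone genes, 695 TPM, which ranks 133rd among all identifiers. AT4G40030 and AT5G10980 followed with 464 and 413 TPM. The next were the H2B gene HTB4 (AT5G59910) at 328 TPM, the H4 gene AT5G59690 at 313 TPM and the H2A.Z gene HTA9 (AT1G52740) at 288 TPM. At the other end AT5G02570 (H2B) and AT1G08170 were listed at 0 in every library, and MGH3 (AT1G19890), an H3 known from male gametes, reached 0.22 TPM in 1 library. AT1G13370 and AT5G12910, both H3, and HTA4 (AT4G13570), counted with H2A.Z, ranged from 0 to 2.25 TPM. These 6 genes were not tested. All histone genes together took 0.695% and 0.678% of TPM in the libraries labelled erf4, against 0.585% and 0.661% in the wild type.

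**Figure D2:**
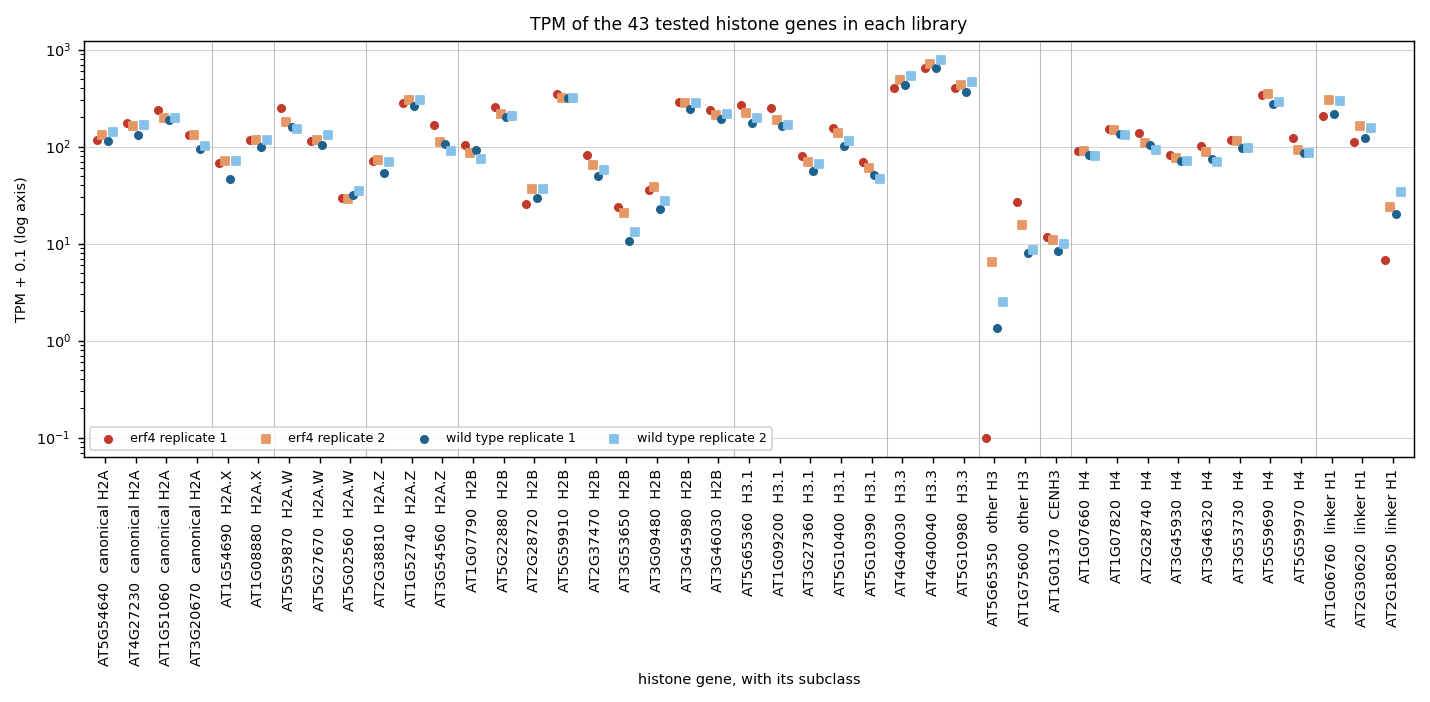
TPM of each tested histone gene (plus 0.1, log axis) in the 2 erf4 libraries (red, orange) and the 2 wild-type libraries (dark and light blue), grouped by subclass. H3.3 genes sit highest, and for H3.1 and H4 the erf4 points lie above the wild-type points for every gene as deposited (4 of 5 and 4 of 8 genes after median-of-ratios rescaling). Of all tested genes 21.5% lie above as deposited and 18.1% after that rescaling.

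Replication-coupled genes had higher values in the libraries labelled erf4, by a small amount, while the variant and linker sums overlapped as deposited. The summed level of the 27 replication-coupled genes was 4037 and 3654 TPM in the libraries labelled erf4, against 3159 and 3354 TPM in the wild type, a ratio of means of 1.18. Both erf4 sums were above both wild-type sums as deposited, but not after median-of-ratios rescaling, with 4268 and 3337 in erf4, against 3173 and 3396 in the wild type. The 19 variant genes summed to 2585 and 2643 TPM in erf4, against 2333 and 2771 TPM in the wild type, and the groups overlapped (ratio 1.02). The linker genes summed to 327 and 486 TPM in erf4, against 359 and 486 TPM in the wild type (ratio 0.961). In whole seeds, fewer cells of a type and less RNA per cell cannot be told apart.

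Counted by gene, 20 of the 27 replication-coupled genes had both erf4 values above both wild-type values, none had both below, and 6 overlapped, with 1 not tested. Of the 19 variant genes, 5 of 14 tested lay above, 1 below and 8 overlapped, and no linker gene left the wild-type range. Among all 20804 genes tested, 21.5% were above and 12.2% below. The median log2 fold change was 0.27 for tested replication-coupled genes, 0.07 for variants and -0.05 for linkers, against 0.03 over all genes. After median-of-ratios rescaling of the libraries 12 replication-coupled and 2 variant genes lay above, with medians of 0.23 and 0.03 (18.1% of all genes above). With an unadjusted limma p under 0.05 there were 7 replication-coupled and 1 variant gene, all higher in erf4, where 4.23% of all genes were higher and 2.74% lower.

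Within a library, the ratio of replication-coupled to variant TPM is not altered by a constant scaling factor. It was 1.56 and 1.38 in the libraries labelled erf4, against 1.35 and 1.21 in the wild type, a mean difference of 0.20 on the log2 scale. The lower erf4 value and the higher wild-type value were close as deposited and both 1.35 after quantile normalization, a comparison added after the data were seen, and in both genotypes replicate 2 had the lower ratio. No test was made of this ratio, since the smallest exact permutation p that 2 libraries against 2 allow, two-sided, is 0.333.

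The 5 H3.1 genes, which encode the H3 placed at the replication fork, had log2 fold changes between 0.28 and 0.43. All had higher values in both erf4 libraries than in either wild-type library as deposited, where 21.5% of all genes did. After median-of-ratios rescaling and after quantile normalization 4 of the 5 still did (18.1% and 19.1% of all genes). AT5G65360 had 267 and 222 TPM in the libraries labelled erf4, against 175 and 197 TPM in the wild type (log2 fold change 0.39, SE 0.17). AT1G09200, which has 2 octamers before its start, had 249.8 and 187 TPM in erf4, against 165 and 168 TPM in the wild type (log2 fold change 0.37, SE 0.19). For both genes erf4 replicate 1 was the highest library, and the second erf4 library lay nearer to the wild type.

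AT5G10400, the gene with both motifs, had 154 and 138 TPM in erf4, against 102 and 115 TPM in the wild type (log2 fold change 0.43, SE 0.15, limma adjusted p = 0.652). Its neighbour on the chromosome, AT5G10390, had 70.0 and 60.8 TPM in erf4, against 51.1 and 46.3 TPM in the wild type (log2 fold change 0.42, SE 0.15, limma adjusted p = 0.666). AT3G27360 had 80.4 and 68.7 TPM in erf4, against 56 and 66.5 TPM in the wild type, the narrowest gap of the 5 (log2 fold change 0.28). Summed, H3.1 stood at 749 ± 103 TPM in erf4 and 571 ± 31.1 TPM in the wild type (SD, n = 2 each), a ratio of 1.31. Leaving out erf4 replicate 1 put the log2 ratio of the sums at 0.24, and leaving out erf4 replicate 2 at 0.52, against 0.39 with all libraries.

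The H3.3 genes, whose product replaces H3 at transcribed genes throughout the cell cycle, overlapped between genotypes without exception. AT4G40040 had 644 and 704 TPM in erf4, against 644 and 789 TPM in the wild type. AT4G40030 had 403 and 484 TPM in erf4, against 437 and 531 TPM in the wild type. AT5G10980 had 400.2 and 427 TPM in erf4, against 367 and 459 TPM in the wild type. All 3 were higher in replicate 2 of both genotypes. The log2 fold change was -0.08 for AT4G40040 (95% confidence interval -0.56 to 0.40), -0.13 for AT4G40030 (-0.61 to 0.36) and 0.01 for AT5G10980 (-0.45 to 0.47).

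As a share of all H3 transcripts, H3.1 took 35.6% and 29.1% in the libraries labelled erf4, against 27.3% and 24.8% in the wild type. H3.3 took 62.7% and 69.5% in erf4, against 71.8% and 74.3% in the wild type. The groups did not overlap for either share, and erf4 replicate 2 lay nearest to the wild type. The ratio of H3.1 to H3.3 was 0.568 and 0.419 in erf4, against 0.379 and 0.333 in the wild type. The H2A shares overlapped between genotypes in every subclass: canonical H2A held 37.7% and 38.5% of H2A transcripts in erf4, against 38% and 38.5% in the wild type.

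**Figure D3:**
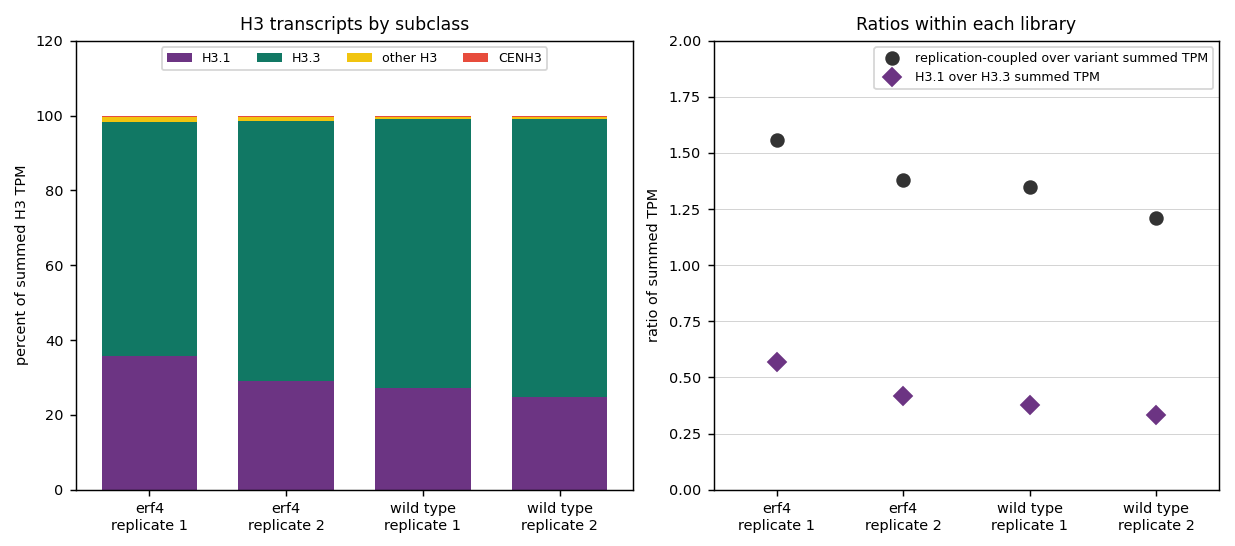
Left, share of summed H3 TPM held by each H3 subclass in each library, in percent. Right, ratio of summed TPM within each library, for replication-coupled over variant genes (circles) and H3.1 over H3.3 (diamonds); erf4 values run from 1.38 to 1.56 and 0.419 to 0.568, wild-type values from 1.21 to 1.35 and 0.333 to 0.379.

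Among tested histone genes, the highest log2 fold change was that of AT1G75600, an H3 gene. It had 27 and 15.3 TPM in the libraries labelled erf4, against 7.89 and 8.41 TPM in the wild type. Both erf4 values were above the wild type and they differed from each other by more than the wild-type values did. The ratio of means was 2.6 and the log2 fold change 1.23 (SE 0.29, limma adjusted p = 0.489). Its protein has 5 substitutions against H3.3 and 9 against H3.1, it has 4 coding exons, and no octamer or hexamer lies in its window. Its closest copy by coding sequence, AT1G13370, was at 0.43 and 0 TPM in erf4, against 0.52 and 0.56 TPM in the wild type.

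Other H3 genes were scarce. HTR11 (AT5G65350), next to the H3.1 gene AT5G65360, was listed at 0 and 6.39 TPM in erf4, against 1.24 and 2.41 TPM in the wild type, with the 2 erf4 libraries at opposite ends. CENH3 (HTR12, AT1G01370), the centromeric H3, had 11.7 and 10.8 TPM in erf4, against 8.22 and 9.73 TPM in the wild type (log2 fold change 0.30, SE 0.19). Both erf4 values were higher as deposited, and the groups overlapped after either rescaling of the libraries.

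For all 8 H4 genes both erf4 values exceeded both wild-type values as deposited, where 21.5% of all genes did. H4 is the partner of H3 in the nucleosome core. The summed level was 1143 and 1071 TPM in the libraries labelled erf4, against 922 and 914 TPM in the wild type, a ratio of 1.21 with wild-type libraries almost level. The most abundant gene, AT5G59690, had 337 and 352 TPM in erf4, against 274 and 287 TPM in the wild type (log2 fold change 0.30, SE 0.14). AT3G46320 had the smallest p of the class, with 102 and 87.3 TPM in erf4, against 73.8 and 70.2 TPM in the wild type (log2 fold change 0.39, SE 0.15, limma adjusted p = 0.707). AT3G53730 was the most reproducible, with 116 and 115 TPM in erf4, against 97 and 96.7 TPM in the wild type (log2 fold change 0.25, SE 0.13). Log2 fold changes of the 8 genes ran from 0.16 to 0.39. After median-of-ratios rescaling 4 of the 8 still lay above the wild-type range (18.1% of all genes) and after quantile normalization 6 (19.1%).

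H2B, which pairs with H2A, was uneven. The 5 genes annotated as HTB1, HTB2, HTB4, HTB9 and HTB11 had log2 fold changes between 0.08 and 0.20. The less abundant genes AT3G53650, AT3G09480 and AT2G37470 had larger ones, at mean levels of 17, 31.1 and 63.7 TPM. AT2G28720, at a mean of 32 TPM, went the other way (-0.11). AT3G53650 had 23.8 and 20.7 TPM in the libraries labelled erf4, against 10.5 and 13 TPM in the wild type, a ratio of 1.9 (log2 fold change 0.88, SE 0.19, limma adjusted p = 0.461). AT3G09480 had 35.5 and 38.5 TPM in erf4, against 22.9 and 27.6 TPM in the wild type (log2 fold change 0.54, SE 0.16). AT2G37470 had 82.7 and 65.2 TPM in erf4, against 49.9 and 56.8 TPM in the wild type (log2 fold change 0.46, SE 0.18). The groups did not overlap for AT3G53650, AT3G09480 and AT2G37470, nor, by narrow gaps, for HTB2 (AT5G22880) and HTB9 (AT3G45980). HTB2 had 256 and 217 TPM in erf4, against 202 and 209 TPM in the wild type. HTB9 had 288 and 285 TPM in erf4, against 242 and 282 TPM in the wild type. Thus 5 of 9 tested H2B genes lay above the wild-type range, where 21.5% of all genes did. After median-of-ratios rescaling 3 did.

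The share of AT3G53650 among H2B transcripts was 1.69% and 1.62% in erf4, against 0.906% and 1.05% in the wild type. HTB4 (AT5G59910), the most abundant, had 353 and 321 TPM in erf4, against 317 and 321 TPM in the wild type, and its share of H2B was 25.1% and 25% in erf4, against 27.4% and 26% in the wild type. AT2G28720 was the one H2B gene with a negative log2 fold change, -0.11 (SE 0.22). The summed H2B level was 1407 and 1282 TPM in erf4, against 1157 and 1238 TPM in the wild type (ratio 1.12).

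Among canonical H2A genes, HTA13 (AT3G20670) stood out, with 133 and 130.5 TPM in erf4, against 95.1 and 102 TPM in the wild type (log2 fold change 0.42, SE 0.13, limma adjusted p = 0.605). HTA10 (AT1G51060), the other canonical H2A gene with an octamer, had 239.8 and 199 TPM in erf4, against 189 and 199 TPM in the wild type, so that erf4 replicate 2 and wild type replicate 2 were almost level. HTA1 (AT5G54640), also known as RAT5 for resistance to Agrobacterium transformation, had 116 and 132 TPM in erf4, against 115 and 142 TPM in the wild type. HTA2 (AT4G27230) overlapped as well (log2 fold change 0.19, SE 0.17). After either rescaling HTA13 was the one canonical H2A gene above the wild-type range.

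The H2A variant genes shared no single pattern. Of the H2A.W genes, HTA6 (AT5G59870), the one variant H2A gene with an octamer, had 252 and 178 TPM in the libraries labelled erf4, against 159 and 151 TPM in the wild type (log2 fold change 0.45, SE 0.20). HTA12 (AT5G02560) was the only tested histone gene below the wild-type range, with 29.3 and 28.5 TPM in erf4, against 32 and 34.4 TPM in the wild type (log2 fold change -0.19, SE 0.14). HTA7 (AT5G27670) overlapped, with a log2 fold change of -0.02 (SE 0.17). HTA6 and HTA12 did not overlap between genotypes in any of the 3 scalings.

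Of the H2A.Z genes, HTA11 (AT3G54560) had 166 and 111 TPM in erf4, against 107 and 90.4 TPM in the wild type (log2 fold change 0.46, SE 0.23). HTA8 (AT2G38810) had 71.9 and 72.7 TPM in erf4, against 53.3 and 69.1 TPM in the wild type (log2 fold change 0.25, SE 0.17). HTA9 (AT1G52740), the most abundant H2A gene, overlapped, with 283 and 300.0 TPM in erf4, against 264 and 304 TPM in the wild type. No H2A.Z gene lay above the wild-type range after either rescaling. The H2A.X genes HTA3 (AT1G54690) and HTA5 (AT1G08880) overlapped, with log2 fold changes of 0.26 (SE 0.23) and 0.10 (SE 0.15).

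**Figure D4:**
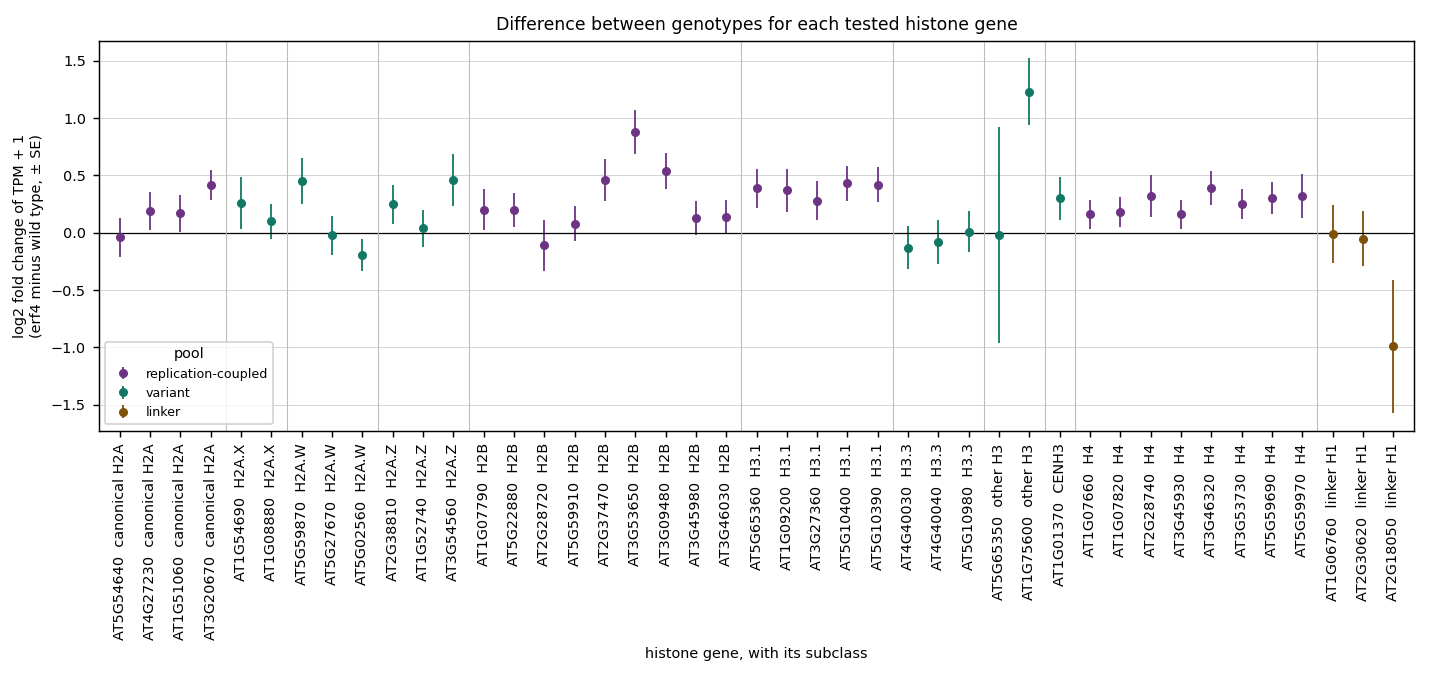
Log2 fold change of TPM + 1 (erf4 minus wild type, ± SE from limma, n = 2 libraries each) for each tested histone gene, coloured by pool. H3.1 and H4 genes lie between 0.16 and 0.43; AT1G75600 (1.23) and AT3G53650 (0.88) are highest and HIS1-3 (AT2G18050, -0.99) lowest.

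Linker histone levels differed more between replicates than between genotypes. AT1G06760, the most abundant H1 gene, had 209 and 299.9 TPM in the libraries labelled erf4, against 216 and 294 TPM in the wild type, and AT2G30620 had 111 and 162 TPM in erf4, against 122 and 157 TPM in the wild type. Replicate 2 was the higher library in both genotypes for both genes. HIS1-3 (AT2G18050), an H1 known to respond to drought, had 6.76 and 23.5 TPM in erf4, against 20.2 and 34.3 TPM in the wild type (log2 fold change -0.99, SE 0.58). Without erf4 replicate 1 the log2 fold change was -0.16, and without erf4 replicate 2 it was -1.82. It again ran with the replicate number, and the groups overlapped. Its share of H1 transcripts was 2.07% and 4.84% in erf4, against 5.62% and 7.06% in the wild type. Of all 43 tested histone genes, 16 were higher and 10 lower in replicate 2 of both genotypes. Another 17 were lower in erf4 replicate 2 and higher in wild type replicate 2, and 0 the reverse. The same counts were not made over all genes, so they cannot show whether this is particular to histone genes.

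Genes of DNA replication and division had higher values beside the replication-coupled histones. Of 17 tested genes of S phase, 13 were above the wild-type range and 1 was below (21.5% and 12.2% of all genes), with a median log2 fold change of 0.41, and none was called. PCNA1 (AT1G07370), the replication clamp, had 36.4 and 31.8 TPM in the libraries labelled erf4, against 21.2 and 22.5 TPM in the wild type. The helicase subunit MCM4 (AT2G16440) had 13.7 and 16.3 TPM in erf4, against 9.67 and 8.8 TPM in the wild type. The one gene below, named for that, was RNR2A (AT3G23580), a ribonucleotide reductase subunit, with a log2 fold change of -0.17 (SE 0.16).

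The S phase list summed to 258 and 283 TPM in erf4, against 199 and 199 TPM in the wild type. Within erf4 it was higher in replicate 2 as deposited, whereas H3.1 was higher in replicate 1. After median-of-ratios rescaling the S phase sums in erf4 replicates 1 and 2 were 273 and 258, and after quantile normalization 272 and 261. Replicate 1 of erf4 was then the higher for both S phase and H3.1. Genes of G2 and mitosis had 10 of 12 above the range and none below (median 0.28), against 21.5% and 12.2% of all genes. After either rescaling 8 lay above, with 1 below after median of ratios. KN (AT1G08560), the KNOLLE syntaxin of cytokinesis, had 254 and 217 TPM in erf4, against 166 and 155 TPM in the wild type. CDKB1;1 (AT3G54180), a cell cycle kinase active at the entry to mitosis, had a log2 fold change of 0.55 (SE 0.20) and the cytokinesis kinesin HIK (AT1G18370) at 0.44 (SE 0.16). The histone deposition machinery differed less. Of 10 H3-H4 chaperone genes 4 lay above and none below (median 0.13). After median-of-ratios rescaling and after quantile normalization 3 lay above (18.1% and 19.1% of all genes). ASF1B (AT5G38110), which hands H3-H4 to the depositing complexes, had 10.9 and 10.9 TPM in erf4, against 8.4 and 8.7 TPM in the wild type. FAS1 (AT1G65470), a CAF-1 subunit, had 4.8 and 5.96 TPM in erf4, against 3.94 and 4.02 TPM in the wild type. HIRA (AT3G44530), the H3.3 chaperone, named for its role after the values had been seen, had 6.71 and 9.74 TPM in erf4, against 8.12 and 8.02 TPM in the wild type.

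Of 12 H2A-H2B chaperone and remodeller genes 2 lay above and none below (median 0.05), near the 21.5% of all genes above. Without erf4 replicate 1 the count was 9 above and none below (55.1% and 16.8% of all genes), and without erf4 replicate 2 it was 3 above and 5 below (29.2% and 46.5%). The 2 genes above with all libraries were NAP1;2 (AT2G19480) and DDM1 (AT5G66750), the remodeller that deposits H2A.W. DDM1 had 9.55 and 9.72 TPM in erf4, against 7.56 and 5.94 TPM in the wild type (log2 fold change 0.46, SE 0.21). NRP1 (AT1G74560), an H2A-H2B chaperone, had a log2 fold change of -0.16 (SE 0.20). Among 5 genes for H3.1 readers and CENH3 loading, 4 lay above and none below (median 0.26), including TSK (AT3G18730), which binds newly placed H3.1, and the centromere genes CENP-C (AT1G15660) and KNL2 (AT5G02520), with log2 fold changes of 0.33, 0.32 and 0.26.

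**Figure D5:**
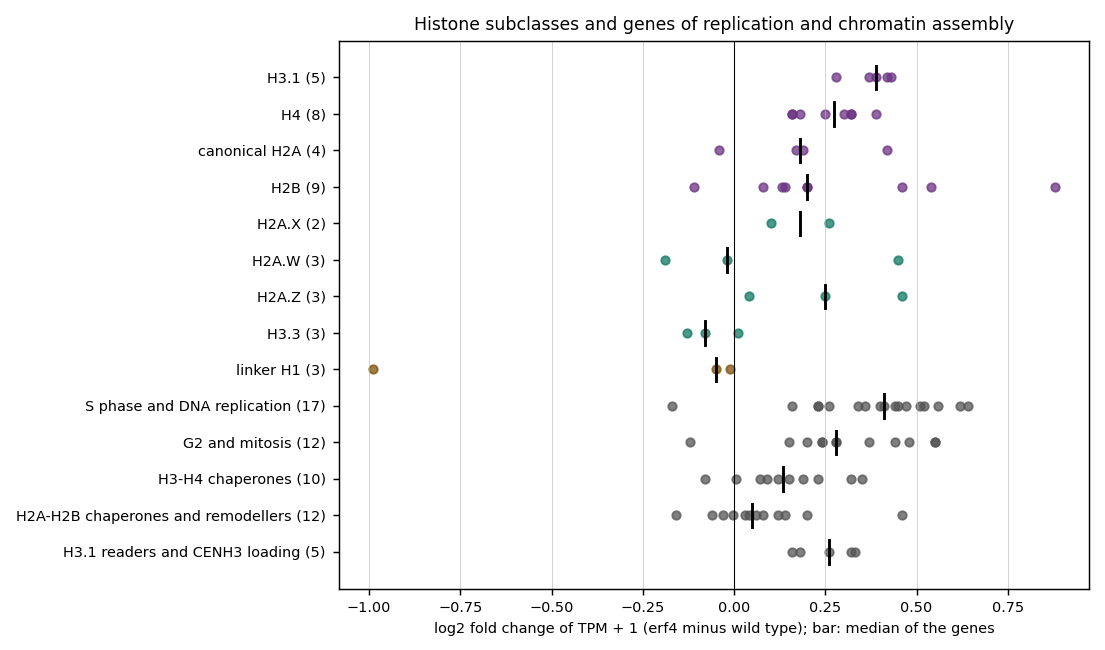
Log2 fold changes (erf4 minus wild type) of tested genes in histone subclasses (purple, green, brown) and in lists of replication and chromatin assembly genes (grey), with the number of genes and a bar at the median. Medians are 0.39 for H3.1, 0.27 for H4, -0.08 for H3.3, 0.41 for S phase and 0.05 for H2A-H2B chaperones and remodellers.

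Markers of seed tissues also differed between the libraries, and their part in the histone values was not tested. For the counts that follow, 21.5% of all genes lay above the wild-type range and 12.2% below. Of 7 seed coat markers 5 had both erf4 values above it, with summed levels of 1923 to 2296 TPM in erf4, against 1194 to 1324 TPM in the wild type. Silique wall and leaf markers did so in 4 of 5 cases, and in 3 of 5 after median-of-ratios rescaling (18.1% of all genes). They summed to 1250.5 to 1428 TPM in erf4, against 652 to 1056 TPM in the wild type. FIL (AT2G45190) lay below, with 29.5 and 29.3 TPM in erf4, against 37 and 33.6 TPM in the wild type. RCA (AT2G39730) was the largest part of each sum, with 957 and 775 TPM in erf4, against 664 and 309 TPM in the wild type. Embryo markers lay below in 4 of 6 cases, with sums of 851 to 13274 TPM in erf4 and 8186 to 13123 TPM in the wild type. LEC1 (AT1G21970), a regulator of early embryo identity, was the exception above the range, with 118 and 109.8 TPM in erf4, against 74 and 78.2 TPM in the wild type. Most of each embryo sum came from the storage protein genes SESA3 (AT4G27160) and CRA1 (AT5G44120). SESA3 had 10649 and 137 TPM in erf4, against 9387 and 4932 TPM in the wild type. CRA1 had 2311 and 309 TPM in erf4, against 3283 and 2750.5 TPM in the wild type.

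Late maturation markers summed to 58.3 to 141 TPM in erf4, against 223 to 497 TPM in the wild type, with 3 of 5 tested below the range. EM6 (AT2G40170) was listed at 0 in both erf4 libraries and in wild type replicate 2. Of 4 tested endosperm markers 3 lay above and 1 below, with sums of 648 to 793 TPM in erf4 and 1195 to 1537 TPM in the wild type. Most of each sum was EPR1 (AT2G27380), the marker below, with 779 and 633 TPM in erf4, against 1530.2 and 1189 TPM in the wild type. PHE1 (AT1G65330), FWA (AT4G25530) and FIS2 (AT2G35670) lay above, all between 1.31 and 8.07 TPM. AGL62 (AT5G60440), IKU2 (AT3G19700) and MINI3 (AT1G55600) were under 1 TPM throughout. Of 3 tested male germline markers 1 lay above. All 4 markers summed to 18.4 to 21.3 TPM in erf4 and 14.6 to 20.2 TPM in the wild type, most of it GEX1 (AT5G55490). DUO1 (AT3G60460), not tested, was between 0 and 0.44 TPM.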

How the data were processed

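RNA-seq gene expression was deposited by the authors as TPM rounded to 2 decimals, 1 column for each of 4 libraries (2 erf4, 2 wild type) plus their genotype means, which were not used. RSEM, HISAT and fastp are the tools listed, per the submitters' processing notes, with no version or role. The sources used here do not name the build or annotation, and depth is unknown, so precision rests on the 2 libraries per genotype. Sample titles gave the group and the replicate number. A gene was tested if 2 or more libraries reached 1 TPM, which 20804 genes did, among them 43 histone genes. The test was limma (version 3.58.1, R 4.3.3) on log2(TPM + 1), with genotype as its single term and a mean-variance trend. P-values are two-sided and were adjusted over all tested genes by Benjamini-Hochberg, with a threshold of 0.05. Fold changes on this scale understate the change of low genes. The range rule asks that both erf4 values lie above, or below, both wild-type values. Sums are of TPM over all genes of a set, tested or not.

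Histone names, gene structure, coding sequences and the 300 bases before each gene start came from RefSeq TAIR10.1, matched by locus identifier. Identities are from global alignments (Biopython 1.88) of the longest coding sequence of each gene, as a percentage of the longer one. Genes without an annotated name are given by identifier. Full values are given, per subclass, for up to 3 genes with the smallest limma p and the most abundant one, and for some others in shorter form. The members, lists and tests were chosen with earlier results of these data known. Alternatives were the pseudocount (0.1, 5), the filter (none, or mean TPM from 5 upward), rescaling by median of ratios or by quantiles, no variance trend, the replicate number as a term, a threshold of 0.1, narrower pools, and leaving out each library. The E2F letters and the longer hexamer were added after the data were seen. The limma test was checked on simulated data.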

Additional observations from a re-analysis of the deposited data

How the results depend on the processing

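With no filter on low values 44 genes were called over all genes, none of them a histone gene, and 3 histone genes lay below the wild-type range, against 1. With a replicate block (the replicate number as a further term) limma called 1083 of 20804 genes and 3 of 43 histone genes tested. The 3 were AT1G75600 (log2 fold change 1.23, adjusted p = 0.0096) and AT3G53650 (0.88, adjusted p = 0.0281), higher in erf4, and HIS1-3 (AT2G18050, -0.99, adjusted p = 0.0245), lower. The differences between replicates 2 and 1 correlated between genotypes across genes (Pearson r 0.351, 20804 genes), but the labels do not say that the number marks a shared plant, batch or day. After median-of-ratios rescaling 14 histone genes lay above the wild-type range (18.1% of all genes), against 25 as deposited (21.5%). Leaving out 1 library (the lone library of a genotype is then assumed to vary like the other genotype's), limma called 0 to 8 genes over all genes and no histone gene, 26 to 35 histone genes lay above and 1 to 10 below the remaining wild-type range. Of all genes 29.2% to 55.1% were then above and 16.8% to 46.5% below. The log2 ratio of sums was 0.17 to 0.31 for the replication-coupled pool and -0.08 to 0.16 for the variant pool. It was -0.37 to 0.20 for the linker pool, so its direction rests on single libraries. The difference between the replication-coupled and variant pools was 0.11 to 0.29 on the log2 scale when 1 library was left out, and 0.19 after quantile normalization, chosen after seeing the data.

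Of 30 named histone genes, 20 kept the sign of their log2 fold change in all 12 settings, and the cause of the sign changes was not tested. Under a pseudocount of 5 AT5G65350 stood at 0.15. After quantile normalization HTA9 (AT1G52740) stood at -0.01 and AT5G10980 at -0.04, and after median-of-ratios rescaling AT5G10980 at -0.03. Where leaving out a library changed the sign, the values ran from -0.03 to 0.56 for HTA3 (AT1G54690), -0.01 to 0.22 for HTA5 (AT1G08880), -0.20 to 0.16 for HTA7 (AT5G27670) and -0.06 to 0.14 for HTA9 (AT1G52740). They ran from -0.27 to 0.01 for AT4G40030, -0.23 to 0.06 for AT4G40040, -0.15 to 0.17 for AT5G10980, -1.47 to 1.42 for AT5G65350, -0.32 to 0.22 for AT2G30620 and -0.27 to 0.25 for AT1G06760.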
